A study of Mus musculus with 17 samples.

Results

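The libraries described here are the 6 of the series' 17 that come from pups nursed by an IgA -/- dam and taken after weaning, 3 at day of life 42 and 3 at day of life 24. They were chosen by their sample titles, which give the dam and the day. All pups of the series were mice of the C57BL/6 strain with the genotype Igha -/+, so each carried a functional copy of the immunoglobulin A heavy chain gene and could make IgA itself. What the pups of the IgA -/- dam lacked was the IgA of the milk. The comparison group was 5 libraries from Igha -/+ pups nursed by a C57BL/6 (B6) dam, 2 at day 24 and 3 at day 42. The other 6 libraries, at day 14 and from both dams, entered the scaling between libraries and the spread between replicates, but no comparison. Cells of the digested small intestine were sorted as EpCAM+, CD45- and Ter119-, frozen, and turned into RNA libraries with the SMART-seq v4 kit after all groups had been collected. The labels do not say which segment of the small intestine was used, how many cells were sorted, or whether the 3 libraries of a group came from separate litters. The p-values therefore measure only the spread between these libraries. The sample descriptions carry the same date for the day 24 and day 42 libraries of the IgA -/- dam, and different dates for those of the B6 dam.

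Secretory IgA is the main antibody of the gut surface. In a nursing mouse it comes from milk, and after weaning the pup's own plasma cells take over its supply while the diet changes from milk to solid chow and the gut flora becomes more diverse. The small intestinal epithelium that these changes reach is renewed from crypt stem cells and holds absorptive enterocytes and several secretory types. Enteroendocrine cells release hormones into blood, tuft cells sense luminal chemicals, goblet cells make mucus, and Paneth cells at the crypt base secrete antimicrobial peptides.

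The deposited values are TPM, a transcript abundance in which each gene's reads are divided by its length and every library has the same sum. Whole reads could be recovered from the TPM for at least 93% of the values above 0 in each library, and they summed to 11683681 to 14129987 reads in the day 24 libraries and 15515277 to 16959244 in those of day 42. One RNA annotated as Gm23935 took 51.2% to 60.8% of all TPM in the 6 libraries and mitochondrial genes 21.3% to 33.3%. The rest of the transcriptome held 10.3% to 15.2% of TPM at day 24 and 16.8% to 18.6% at day 42. At least 1 TPM was reached by 8658 to 10193 genes in the day 24 libraries and by 11436 to 11775 at day 42. The libraries were therefore rescaled by the median of their gene-wise ratios over the 17 libraries, and all levels below are in this scaled TPM. On log2 levels, Pearson's r across the tested genes was 0.936 to 0.958 between day 24 libraries, 0.973 to 0.974 between day 42 libraries and 0.889 to 0.939 between the ages. The sort marker Epcam was at 269, 373 and 318 scaled TPM at day 24 and at 420, 393 and 368 at day 42. Ptprc, which encodes CD45, stayed between 0.105 and 0.732 in the 6 libraries, and Igha was at 0.978 in 1 day 24 library and at or under 0.0516 in the others.

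Between day 24 and day 42, hormone genes of enteroendocrine cells and signalling genes of tuft cells rose, while interferon-stimulated genes and single enterocyte genes, among them S100g, Fabp1, Rbp2 and Gda, fell. Of 11864 genes with at least 1 TPM in 2 or more of the 6 libraries, 516 (4.35%) passed an adjusted p of 0.05 in the limma fit described under the processing, 278 of them (2.34%) higher and 238 (2.01%) lower at day 42. At least 2-fold changes were found for 75 of the higher and 142 of the lower genes. The 3 libraries of one age did not overlap the 3 of the other for 4214 genes (35.5%), 1939 of them higher and 2275 lower at day 42. The median change of all tested genes was 0.01 on the log2 scale. On the TPM as deposited this median was 0.62, and 98% of the called genes were higher at day 42 against 53.9% here, so every direction below is relative to the median gene. The count also rested on single libraries: it was 45 without the first day 42 library and 117 without the first day 24 library.

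**Figure D1:**
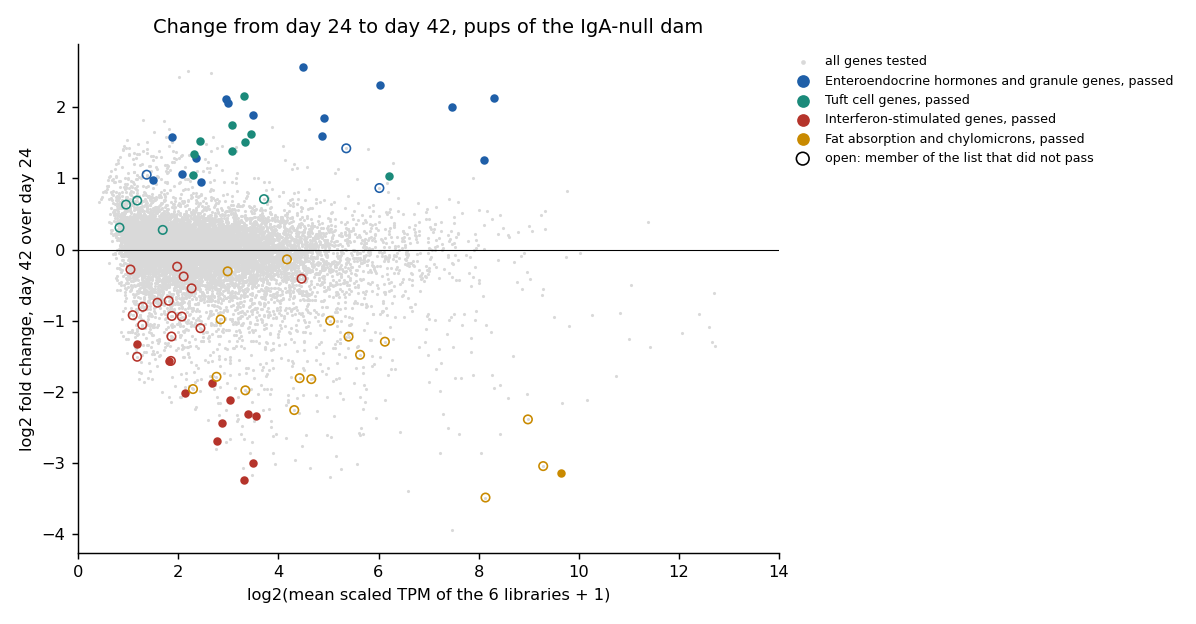
Log2 fold change from day 24 to day 42 (vertical axis) against the log2 mean scaled TPM of the 6 libraries plus 1 (horizontal axis), 1 point a gene, for pups of the IgA -/- dam. Filled points are members of the 4 coloured lists that passed the test and open points members that did not. The hormone and granule genes all lie above 0 and the interferon-stimulated genes all below.

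Hormone and granule genes of enteroendocrine cells rose in the pups of the IgA -/- dam. Of 22 listed genes 18 were tested, and 15 of them rose and none fell, beside 2.34% of all genes called higher. The list's median log2 change was 1.59, beside 0.01 for all genes. All 18 were higher in every day 42 library than in every day 24 library, beside 1939 of all 11864 tested genes. Gcg, which encodes proglucagon, the precursor of the glucagon-like peptides, was at 17.7, 26.6 and 19.4 scaled TPM at day 24 and at 117, 110 and 96.5 at day 42. The groups lay far apart, and the ratio of their means was 5.08 (log2 change 2.31, SE 0.37, adjusted p = 0.0104). The gene lies at chr2:62474530-62483650 on the minus strand (GRCm38, GENCODE M21). Nts, the gene of neurotensin, a peptide of the distal gut that is released by fat, had the largest rise of the ranked called genes. The ranking held 137 of the 516 called genes, by the rule given with the processing. Nts was at 2.90, 12.3 and 3.73 at day 24 against 41.1, 39.8 and 28.5 at day 42. Its log2 change was 2.56 (SE 0.46, adjusted p = 0.0138), and the second day 24 library stood above the other day 24 libraries.

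Hormones known from the proximal gut rose as well as distal ones. Gip, the incretin of duodenal K cells, was at 104, 146 and 83.3 scaled TPM at day 24 and at 504, 787 and 274 at day 42 (log2 change 2.13, adjusted p = 0.0340). Cck, cholecystokinin, which drives gallbladder emptying, moved from 9.03, 13.7 and 12.4 to 34.2, 66.5 and 38 (1.85, adjusted p = 0.0264). Sct, secretin, moved from 13.1, 14.25 and 12.4 to 40.2, 58.9 and 30.9 (1.59, adjusted p = 0.0139). In all 3 genes the day 42 libraries varied more than those of day 24 and yet did not overlap them. The distal hormone Pyy, peptide YY, was low at both ages, at 1.03, 3.06 and 1.60 and then 9.49, 17.2 and 8.21 (2.12, adjusted p = 0.0104). Somatostatin, Sst, a brake on other endocrine cells, rose from 73.4, 91.9 and 45.0 to 229, 398 and 222 (2.00, adjusted p = 0.0147). Tph1, the enzyme that starts serotonin synthesis in enterochromaffin cells, rose by 1.06 (adjusted p = 0.0185), and Tac1, the substance P precursor, by 0.95 (adjusted p = 0.0486).

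The machinery of the secretory granule rose with its cargo. The granin Scg2 was at 1.55, 2.89 and 1.73 scaled TPM at day 24 and at 10.8, 15.4 and 9.21 at day 42 (log2 change 2.06, adjusted p = 0.0104). The processing enzymes Pcsk1 and Cpe, which cut and trim prohormones, rose by 1.29 (adjusted p = 0.00586) and 1.89 (adjusted p = 0.0131). Scg3, Scg5 and Chgb rose by 1.58, 0.98 and 1.27. Of the 3 tested members that did not pass, Ghrl (ghrelin) had a log2 change of 1.42 (adjusted p = 0.0697), Iapp 1.05 (0.0652) and Chga 0.87 (0.0865). Among 13 tested transcription factors of the lineage, St18 (0.95, adjusted p = 0.0261) and Isl1 (1.08, adjusted p = 0.0410) rose, the others did not pass, and the list's median was 0.69. In bulk RNA, more cells of a type and more RNA per cell cannot be told apart. The number of hormone and granule genes called was 5 without the first day 42 library and 8 without the first day 24 library, with medians of 1.59 and 1.55, and 18 without the 2 B6 libraries that stood apart in enterocyte genes (described with those genes).

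Tuft cell genes rose, and the first day 42 library was far above the other libraries in most of them. Of 20 listed genes 14 were tested, 9 rose and none fell, beside 2.34% of all genes called higher. The list's median log2 change was 1.20. In 12 of the 14 the day 42 libraries all lay above the day 24 libraries, beside 1939 of all 11864 tested genes. Rgs13, a brake on G protein signalling found in tuft cells, was at 2.52, 2.54 and 1.53 scaled TPM at day 24 and at 29.8, 8.04 and 9.06 at day 42 (2.16, SE 0.37, adjusted p = 0.0124). It lies at chr1:144138654-144177372 on the minus strand. Trpm5, the cation channel of the taste pathway, was at 3.64, 3.46 and 3.11 and then 18.3, 7.35 and 8.38 (1.38, adjusted p = 0.0138). Pou2f3, the transcription factor that sets the tuft cell fate, was at 2.67, 1.65 and 2.03 and then 8.71, 3.76 and 4.65 (1.05, adjusted p = 0.0475). The day 42 libraries lay above those of day 24 in each of these genes. Dclk1, a kinase used as a tuft cell marker, rose by 1.52, Avil, an actin-bundling protein of the apical tuft, by 1.62, and the adaptor gene Sh2d6 by 1.75. Its relative Sh2d7, which was not in the list but among the largest rises, rose by 1.72. Alox5ap, a gene of leukotriene synthesis, rose by 1.35 and Cd24a by 1.03. Without the first day 42 library 5 of 12 tested members passed and the median was 0.92, and without the first day 24 library 5 of 14 passed with a median of 1.15. Spib and Kit, which were listed as markers of M cells and of mast cells, rose by 1.32 and 0.98 and were also highest in the first day 42 library, at 10.1 and 9.43.

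**Figure D2:**
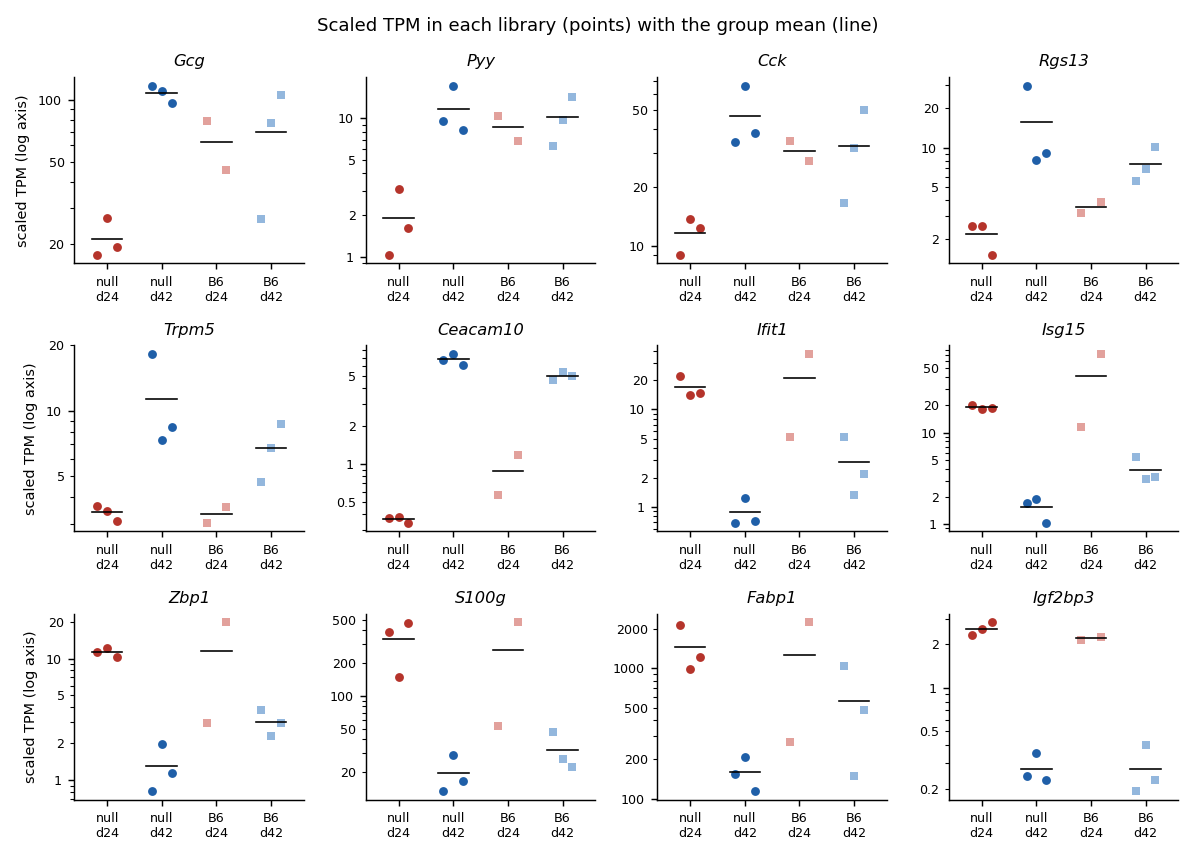
Scaled TPM (log axis) of 12 genes in each library of the IgA -/- dam (circles) and the B6 dam (squares) at day 24 and day 42, with the group mean as a line. Circles of the 2 ages do not overlap in any panel, whereas the B6 squares overlap for Gcg, Pyy, Cck, Ifit1, Zbp1 and Fabp1.

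Ceacam10 and Igf2bp3 had the smallest p-values of all genes, and they are named here, with Cd177, after their values were seen. Ceacam10, a carcinoembryonic-antigen family gene, was at 0.372, 0.379 and 0.338 scaled TPM at day 24 and at 6.70, 7.51 and 6.10 at day 42. Its log2 change was 2.51 (SE 0.12, adjusted p = 1.06e-07), and the ratio of group means was 18.6. It lies at chr7:24777206-24784657 on the plus strand. Cd177, best known as a neutrophil surface protein, was at 1.31, 1.28 and 0.285 and then 7.97, 10.6 and 10.2 (2.48, adjusted p = 5.54e-04). In the opposite direction, Igf2bp3, an RNA-binding protein of fetal tissues, was at 2.31, 2.53 and 2.85 at day 24 and at 0.247, 0.351 and 0.230 at day 42 (-1.48, SE 0.09, adjusted p = 1.53e-06). It lies at chr6:49085223-49214957 on the minus strand. In the B6 libraries Ceacam10 was at 0.564 and 1.18 at day 24 and at 4.65, 5.39 and 4.996 at day 42, and Igf2bp3 at 2.15 and 2.26 and then 0.192, 0.405 and 0.230. Both genes thus moved the same way with age under both dams, and their values at the 2 ages did not overlap in either.

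Single members of surface-related lists also rose. Muc4, a transmembrane mucin of the glycocalyx, was at 6.17, 8.97 and 11.2 scaled TPM at day 24 and at 16.2, 18.4 and 17.9 at day 42 (log2 change 0.95, adjusted p = 0.0124), the only one of 9 tested glycocalyx genes to pass. Nox1, an epithelial oxidase that makes superoxide, rose by 0.81 (adjusted p = 0.0142), while 10 of the 12 tested microbe-responsive genes had a negative change. Ccl28, a chemokine that attracts IgA-secreting cells, rose by 0.70 (adjusted p = 0.0323), while 11 of the 13 tested butyrophilin-like and lymphocyte ligand genes had a negative change (median -0.90). Car4, a membrane carbonic anhydrase, rose by 1.01, with 11 of the 17 tested genes of its list negative. Galnt4, which starts mucin-type O-glycans, rose by 0.51, and Prom1, listed with stem cell genes, by 0.70. Cpt1a, which brings fatty acids into mitochondria, rose by 0.65, the squalene synthase Fdft1 by 0.42, the chaperone Hspa4l by 0.72, and Fkbp5, a glucocorticoid target, by 0.62. The glutamate transporter Slc1a1 rose by 0.65, while 14 of the 16 tested transporters of its list had a negative change. Each of these genes was the only one of its list called higher, beside 2.34% of all genes, so a lone call says little about its list. In some lists most tested members had a positive change, as did 15 of 18 stem cell genes and 17 of 24 cholesterol genes. None of the 30 tested cell cycle genes (median 0.23) and none of 58 cytosolic ribosomal protein genes (0.21) passed, and of 18 tested stem cell genes Prom1 alone did (list median 0.32). Pigr, the receptor that carries IgA into the lumen, was at 567, 458 and 442 and then 565, 658 and 533, groups that overlapped by their values (0.26, adjusted p = 0.433). Fcgrt, the neonatal Fc receptor, was at 9.62, 14.6 and 12.9 and then 7.97, 7.83 and 6.94 (-0.62, adjusted p = 0.391).

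Interferon-stimulated genes fell. Of 40 listed genes 27 were tested, 11 fell and none rose, beside 2.01% of all genes called lower. The list's median log2 change was -1.22. In 23 of the 27 the day 42 libraries all lay below the day 24 libraries, beside 2275 of all 11864 tested genes. Ifit1, which binds foreign RNA caps and blocks their translation, was at 22.1, 14.18 and 14.8 scaled TPM at day 24 and at 0.684, 1.24 and 0.725 at day 42 (-3.24, SE 0.57, adjusted p = 0.0131). The ratio of group means was 19.3. The gene lies at chr19:34640871-34650009 on the plus strand. Isg15, a ubiquitin-like modifier, was at 20.1, 18 and 18.7 and then 1.69, 1.87 and 1.03 (-2.99, adjusted p = 0.0136). Zbp1, a sensor of Z-form nucleic acids, was at 11.4, 12.2 and 10.3 and then 0.807, 1.98 and 1.14 (-2.44, adjusted p = 0.0131). All 3 genes were at or under 1.98 scaled TPM at day 42, and their values at the 2 ages did not overlap.

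A regulator and several effectors of the same list also fell. Irf7, the transcription factor that amplifies the type I interferon response, was at 19.5, 15.8 and 13.8 scaled TPM at day 24 and at 2.91, 3.09 and 1.60 at day 42 (log2 change -2.31, adjusted p = 0.0262). Mx2 fell by 1.33, Oasl2 by 2.12, Rtp4 by 1.57 and the immunity-related GTPase Igtp by 1.88 on the log2 scale. Apol9a and Apol9b, near-identical copies whose reads the counting could split, fell by 2.69 and 2.01, and Ifit1bl1 by 2.33. Ifit1bl2 and Apol7a, which were in the ranking of the largest falls, fell by 2.71 and 2.63. Stat2 did not pass, at 6.15, 6.91 and 6.14 and then 2.30, 2.90 and 2.15 (-1.10, adjusted p = 0.0612). Without the first day 42 library none of the 27 genes passed, although the median was -1.28, and without the first day 24 library 2 of 23 passed (-1.13). Without the 2 B6 libraries that stood apart 24 of 27 passed. Gzmb and Gzma, granzyme genes of intraepithelial lymphocytes, had lower means at day 42 but did not pass, and both were highest in the second library of each age. Gzmb was at 3.10, 10.4 and 3.45 at day 24 and at 0.0684, 1.37 and 0.0958 at day 42 (-2.08, adjusted p = 0.0676). Gzma was at 3.04, 17.7 and 6.93 and then 0.293, 4.77 and 0.365 (-1.96, adjusted p = 0.164). The 20 T cell markers together summed to 10.3 to 44.4 scaled TPM at day 24 and 1.23 to 10 at day 42, and their part in the fall was not tested.

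The promoters of several of these genes carry the letters to which interferon-activated factors bind, and they are shown to let the shared element be seen. The RefSeq table of GRCm38.p6 promoter windows was searched on both strands for GAAA, any 2 bases and GAAA again, which reads TTTC, any 2 bases and TTTC on the other strand, in the 250 bases before each annotated start. A window was found for 8 of the 11 called genes, and 6 of them held a match. Each stretch below runs 5′ to 3′ in the direction of its gene, with every matched letter in capitals and 15 bases on either side. Of the windows of Ifit1bl1 1 is shown.
Ifit1: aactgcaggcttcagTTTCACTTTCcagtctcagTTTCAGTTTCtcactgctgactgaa
Isg15: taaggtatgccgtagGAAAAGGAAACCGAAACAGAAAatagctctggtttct
Apol9a: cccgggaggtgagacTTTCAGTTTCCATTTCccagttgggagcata
Apol9b: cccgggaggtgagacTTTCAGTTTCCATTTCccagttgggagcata
Ifit1bl1: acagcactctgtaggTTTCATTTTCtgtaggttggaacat
Igtp: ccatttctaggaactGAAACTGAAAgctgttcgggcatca
The stretches lie at chr19:34640770-34640828 (plus strand), chr4:156200860-156200911 (minus), chr15:77411109-77411154 (minus), chr15:77729020-77729065 (plus), chr19:34602048-34602087 (minus) and chr11:58199507-58199546 (plus). The Ifit1 stretch holds 2 matches and the Isg15 stretch 3 that overlap. The Apol9a and Apol9b stretches are identical over all 46 bases.

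Of all windows in that RefSeq set, 978 of 32851 (2.98%) held the element. Of the tested genes with a window 236 of 7909 (2.98%) did, 16 of 134 genes called lower (11.9%) and 6 of 202 called higher (2.97%). In the interferon-stimulated list it was in 6 of 8 called genes and in 8 of 12 genes that did not pass. Outside the list 10 of 126 genes called lower (7.94%) held it. A match is a description of these letters and not of a bound site, and Irf7 and Oasl2 had a window with no match.

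Of the antigen presentation genes only class I members passed. Of 17 tested MHC class I genes 3 fell, beside 2.01% of all genes, with a list median of -0.63. Of the 17, 15 had a negative change and 13 lay lower without overlap, beside 2275 of all 11864 tested genes. Psmb8 and Psmb10, the immunoproteasome subunits that cut peptides for class I loading, fell by 1.00 (adjusted p = 0.0495) and 0.66 (adjusted p = 0.0178), and H2-Q2, one of several near-identical class I copies, by 2.25 (adjusted p = 0.0496). The change of Psmb10 had the opposite sign on the TPM as deposited, at 0.18, and in no other setting. None of the 7 tested class II genes passed and all had a positive log2 change, with a median of 0.73. Cd74, the invariant chain, was at 35.7, 53.3 and 9.60 scaled TPM at day 24 and at 46.8, 101 and 79.7 at day 42 (1.41, adjusted p = 0.0772), and H2-Aa at 2.82, 3.51 and 0.863 and then 2.31, 6.90 and 6.73 (0.88, adjusted p = 0.133). The ages overlapped in both genes.

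The largest fall of the ranked called genes was that of S100g, the calcium-binding protein calbindin-D9k through which vitamin D raises calcium uptake. It was at 382, 148 and 467 scaled TPM at day 24 and at 13.3, 28.6 and 16.6 at day 42, a ratio of day 24 to day 42 means of 17 (log2 change -3.94, SE 0.67, adjusted p = 0.0124). The gene lies at chrX:162961992-162964599 on the minus strand. Fabp1, which binds fatty acids inside the cell, was at 2163, 984 and 1212 and then 156, 210 and 114 (-3.14, adjusted p = 0.0357). Rbp2, the retinol carrier of enterocytes, was at 512, 402 and 469 and then 51.8, 95 and 49.2 (-2.86, adjusted p = 0.0471). In each of the 3 genes the lowest day 24 library was more abundant than the highest day 42 library.

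In the arginine, polyamine and purine list 4 of 20 tested genes fell, all of purine catabolism and salvage, beside 2.01% of all genes. Of the 20, 12 had a positive change, and the list's median was 0.09. Gda, guanine deaminase, was at 70.1, 55.1 and 73.8 scaled TPM at day 24 and at 3.92, 14.11 and 5.64 at day 42 (log2 change -3.08, adjusted p = 0.0339). Ada, adenosine deaminase, fell by 2.61, Xdh, xanthine dehydrogenase, by 2.57 and Aprt, adenine phosphoribosyltransferase, by 0.93, while the other 16 tested genes of the arginine, polyamine and purine list did not pass. Of the zinc transporter family Slc30a10 fell by 2.00 and Slc30a2 by 1.29. Erich4 fell by 2.61 and the peroxiredoxin Prdx5 by 1.80.

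Most enterocyte lists lay lower at day 42 without passing the test. None of 19 tested digestive enzymes of the adult brush border passed, although the median log2 change was -1.63. Of these enzymes 17 lay lower without overlap, beside 2275 of all 11864 tested genes. Treh, trehalase, was at 34.1, 27.3 and 26.8 scaled TPM at day 24 and at 2.90, 6.40 and 2.89 at day 42 (-2.65, adjusted p = 0.0962), and Alpi, intestinal alkaline phosphatase, at 99.3, 95.7 and 107 and then 13.1, 33.6 and 14.6 (-2.37, adjusted p = 0.104). Of 17 tested genes of fat absorption Fabp1 alone passed, with a median of -1.81. Apoa4, a chylomicron apolipoprotein, was at 783, 387 and 367 and then 29.1, 89.8 and 28.2 (-3.49, adjusted p = 0.0838), and Fabp2 at 983, 735 and 823 and then 137, 228 and 131 (-2.39, adjusted p = 0.0589). None of 16 sugar and peptide transporters was called lower (median -1.24), with Slc2a2, the glucose transporter GLUT2, at 12.5, 11.1 and 9.27 and then 0.981, 2.21 and 0.629 (-2.45, adjusted p = 0.107). None of 16 cytochrome P450 genes passed (median -0.89), with Cyp2b10 at 23.2, 13.8 and 19.5 and then 0.907, 2.34 and 0.564 (-3.17, adjusted p = 0.0784). Lct, lactase, the enzyme of milk sugar, was at 68.3, 62.1 and 53.0 and then 7.5, 12.2 and 4.13 (-2.89, adjusted p = 0.113), and none of the 21 tested suckling genes passed (median 0.03).

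These calls depended on 2 libraries of the other dam, which enter the fit through the shared spread. In the digestive enzyme list the mean log2 level relative to the day 24 mean of the IgA -/- dam was -1.73, -1.12 and -1.88 in the 3 day 42 libraries. In the B6 libraries it was -1.49 and 1.64 at day 24 and 0.63, -1.88 and -1.63 at day 42, so that the second B6 library of day 24 and the first of day 42 stood apart from their groups. The 2 libraries also had low size factors, 0.675 and 0.774, and few genes with at least 1 TPM, 9890 and 10301. The IgA -/- day 24 libraries were at 0.480 to 0.722 and 8658 to 10193. The other libraries of these ages were at 0.986 to 1.25 and 11436 to 12337. The part of this in the enterocyte levels was not tested. Whether these 2 B6 libraries carry the right labels could not be checked from the files, and this bears on every B6 value and on every difference between the dams. Without these 2 libraries, an alternative chosen after the data were seen, 15 of 19 digestive enzymes, 15 of 17 fat absorption genes, 14 of 16 transporters, 11 of 16 P450 genes and 17 of 21 Paneth cell products were called lower, and 2207 genes in all. In the fit of the 6 libraries of the IgA -/- dam alone the counts were 16, 14, 14, 9 and 10. Krt20, a keratin of mature villus cells, was at 549, 284 and 277 scaled TPM at day 24 and at 93, 124 and 94.4 at day 42 (-1.76, adjusted p = 0.0671), and Mki67, a gene of dividing cells, at 24.6, 35.7 and 29.6 and then 36.1, 39.0 and 38 (0.33, adjusted p = 0.182). Their part in the falls was not tested.

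**Figure D3:**
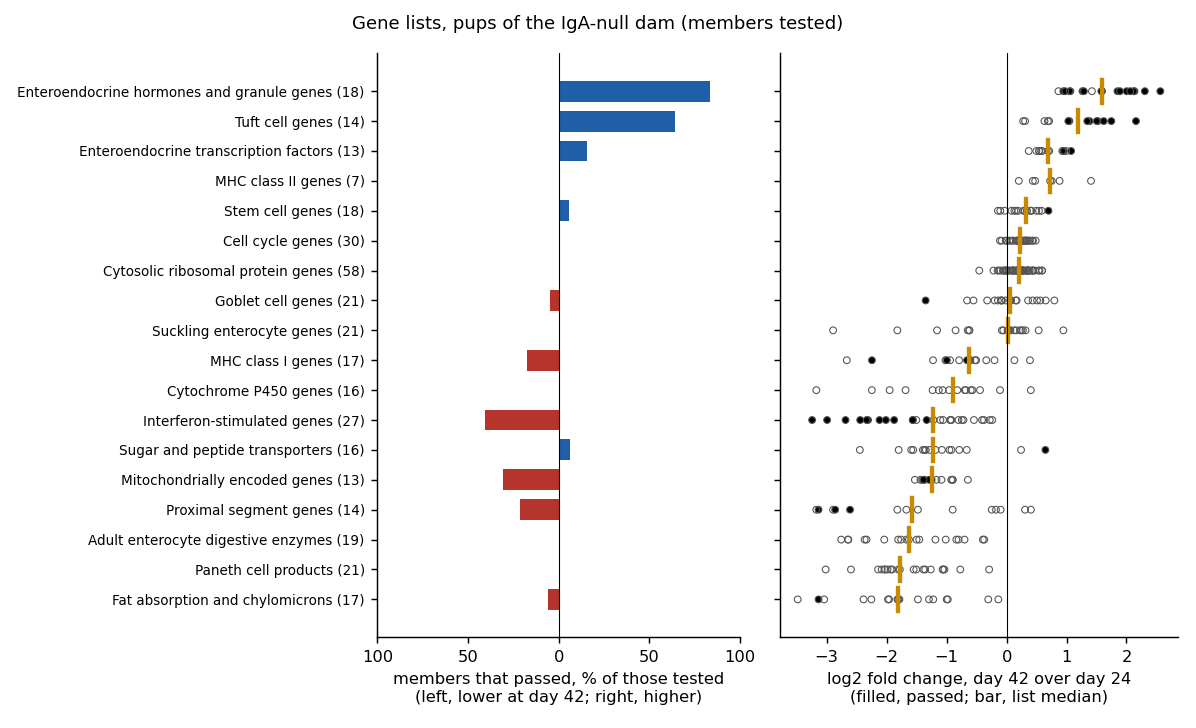
Left, the percentage of tested members of 18 gene lists that passed the test, to the right when higher and to the left when lower at day 42. Right, the log2 fold change of each member (filled if it passed) with the list median as a bar. The enteroendocrine and tuft lists lie to the right, and the Paneth, digestive and fat absorption lists lie to the left at medians between -1.63 and -1.81 with 1 of 57 members passing.

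Paneth cell products followed the same pattern. None of 21 tested members passed, all had a negative log2 change, and the median was -1.78. Of these members 18 lay lower without overlap, beside 2275 of all 11864 tested genes. Mptx2, a pentraxin of Paneth cells, was at 70.9, 119 and 58.8 scaled TPM at day 24 and at 3.53, 9.95 and 18.5 at day 42 (-3.02, adjusted p = 0.0568), and Itln1, the lectin intelectin-1, at 743, 1222 and 464 and then 128, 225 and 209 (-2.04, adjusted p = 0.0594). The alpha-defensin Defa34, whose copies share sequence so that reads could be split, did fall, from 190, 253 and 77.9 to 5.76, 19.4 and 23.2 (-3.39, adjusted p = 0.0279). Of the Reg lectins, which bind bacterial cell walls, Reg3b fell, from 1525, 1959 and 1846 to 150, 892 and 510 (-2.11, adjusted p = 0.0486), and Reg3g did not pass (-1.76, adjusted p = 0.0908). Retnlb, a goblet cell protein with bactericidal activity, fell from 3.20, 2.29 and 1.02 to 0.0707, 0.473 and 0.0660 (-1.35, adjusted p = 0.0249), the only one of 21 tested goblet genes to pass (median 0.06). Clps, pancreatic colipase, which serves as a marker of pancreas RNA, was at 19.6, 45.6 and 15.8 and then 6.96, 7.69 and 8.25 and did not pass (-1.55, adjusted p = 0.192).

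Some mitochondrial and small non-coding RNAs fell. Of 13 tested mitochondrially encoded genes 4 fell, beside 2.01% of all genes called lower, with a median log2 change of -1.25. The size of this fall depended on the scaling. On the TPM as deposited 1 of the 13 was called lower and the median was -0.38, beside 0.62 for all genes. The respiratory chain gene mt-Nd5 was at 3486, 4082 and 4261 scaled TPM at day 24 and at 1746, 1400 and 1443 at day 42 (-1.37, adjusted p = 0.0259), and mt-Co1, mt-Nd6 and mt-Co3 fell by 1.29, 1.25 and 1.39. Reads of such genes can be shared with nuclear copies. Of 42 nuclear genes of the chain only Uqcrq and Sdhb were called lower, by 0.92 and 0.62, beside 2.01% of all genes. The median of these nuclear genes was -0.17, and Sdhb had the opposite sign on the TPM as deposited (0.22). Rn7sk, the small nuclear RNA that restrains transcription elongation, fell from 10047, 9723 and 9293 to 3351, 3165 and 5059 (-1.36, adjusted p = 0.0104), and the vault RNA Vaultrc5 from 635, 434 and 760 to 167, 231 and 242 (-1.49, adjusted p = 0.0277). Of 315 tested genes annotated as snoRNA, scaRNA or snRNA 29 fell and 2 rose, beside 168 falls and 243 rises in 9647 protein-coding genes. The lower number of detected genes and the smaller share of TPM outside Gm23935 and mitochondria at day 24 move with these RNAs, and their part was not tested. The clock-linked repressors Nfil3 and Cry1 fell by 1.12 (adjusted p = 0.0124) and 0.86 (adjusted p = 0.0261). The hour at which tissue was taken is not in the labels.

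Markers of other cells were scarce. No member of the endothelial, enteric neuron and glia or erythroid lists passed the filter on low values. Erythroid markers summed to 1.83 to 67.1 scaled TPM at day 24, with Hbb-bs at 0.483, 44.6 and 0.921, and to 0.555 to 1.15 at day 42. Cd3e, a chain of the T cell receptor complex, stayed at or under 0.297 in the 6 libraries, and Cd8a was at 0.459, 1.15 and 0.584 at day 24 and at 0.0405, 0.246 and 0.0126 at day 42. Vim, listed with fibroblast markers, rose from 2.03, 2.18 and 2.64 to 7.03, 5.25 and 6.05 (log2 change 1.11, adjusted p = 0.0326), the only tested member of its 12. Exocrine pancreas markers summed to 17.5 to 46.6 at day 24 and to 8.43 to 9.67 at day 42.

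The change from day 24 to day 42 was then compared between the dams, the question being whether it differed with the dam's IgA genotype. In the limma interaction test 0 of 11864 genes (0%) passed an adjusted p of 0.05, and 948 had an unadjusted p under 0.05. The smallest adjusted p was 0.115, that of Fkbp5, at 1.23, 0.820 and 0.874 scaled TPM and then 2.38, 1.67 and 2.07 with the IgA -/- dam, against 4.11 and 2.26 and then 1.24, 1.22 and 1.38 with the B6 dam. With limma voom on the recovered reads 0 genes passed and 834 had an unadjusted p under 0.05. The B6 day 24 group had only 2 libraries, and these differed widely, with Ifit1 at 5.23 and 37.2 and Fabp1 at 274 and 2267.

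The rise of the hormone genes was not seen in the fitted values of the B6 dam. With the B6 dam the 18 hormone and granule genes had log2 changes of -0.39 to 0.44 (median -0.01), beside a median of 1.59 with the IgA -/- dam. Of the 18 differences 17 had an unadjusted p under 0.05, beside 7.99% of all genes, and none passed after adjustment over all genes. Gcg was at 78.8 and 45.9 scaled TPM in the B6 libraries of day 24 and at 26.4, 76.9 and 106 at day 42. The difference in its log2 change was 2.31 (95% interval 1.12 to 3.49, adjusted p = 0.406 in limma). For Scg2 the difference was 2.02 (0.96 to 3.08), for Pyy 1.95 (0.87 to 3.04) and for Cpe 1.95 (0.87 to 3.02). Gcg, Scg2, Pyy and Cpe were named for their small p in this same test, so that choice made their intervals exclude 0. The B6 libraries of both ages lay mostly above the IgA -/- day 24 libraries in these genes. Without the 2 B6 libraries that stood apart, the difference was 2.11 for Gcg and -2.33 for Zbp1. Both genes were chosen by their small p in that same fit. It left the B6 day 24 group without replicates, so only these sizes of the difference between dams are given.

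The interferon-stimulated list had median log2 changes of -1.22 with the IgA -/- dam and -1.21 with the B6 dam, and none of the 27 differences had an unadjusted p under 0.05. The B6 value rests on 1 library: relative to the day 24 mean of the IgA -/- dam, the mean log2 level of the list was -0.69 and 1.04 in the B6 libraries of day 24 and -0.79, -1.08 and -1.18 in those of day 42. For Isg15 the difference was -0.35, with a 95% interval of -2.08 to 1.38, which is too wide to show that the changes were equal. For S100g it was -1.57 (-3.73 to 0.58) and for Rgs13 1.27 (0.08 to 2.46). Paneth genes had median log2 changes of -1.78 with the IgA -/- dam and 1.37 with the B6 dam. The list's mean log2 level was -2.49 and -1.65 in the B6 libraries of day 24 and 1.05, -2.16 and -1.27 in those of day 42, so the first day 42 library stood far above the others. Defa34 had the largest difference among named genes, -4.55 (-6.92 to -2.19, adjusted p = 0.406). With the B6 dam Defa34 was at 18.3 and 26.3 at day 24 and at 209, 16.7 and 35.9 at day 42, the first day 42 library standing far above the rest. Itln1 had a difference of -3.45, Vaultrc5 -2.13, Hspa1b -1.81, Lbh -1.24 and Hsd17b12 0.60, all at an adjusted p of 0.406. These 95% intervals are for 1 gene at a time and are not adjusted over genes. Defa34, Itln1, Vaultrc5, Hspa1b, Lbh and Hsd17b12 were named for the smallest p of this same difference.

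**Figure D4:**
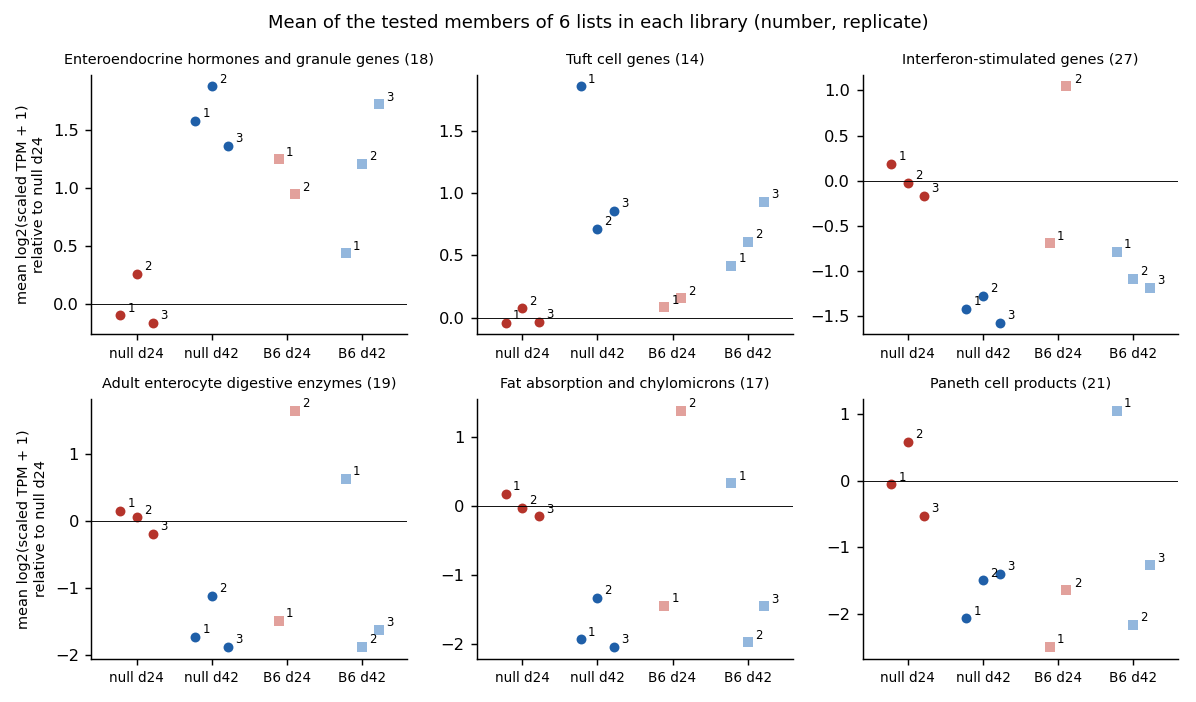
Mean log2(scaled TPM + 1) of the tested members of 6 lists in each library (number, replicate), relative to the mean of the 3 day 24 libraries of the IgA -/- dam. The B6 day 24 library 2 and the B6 day 42 library 1 lie with the IgA -/- day 24 libraries or above them in the digestive and fat absorption lists, whereas the tuft list is low in all 5 day 24 libraries.

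**Figure D5:**
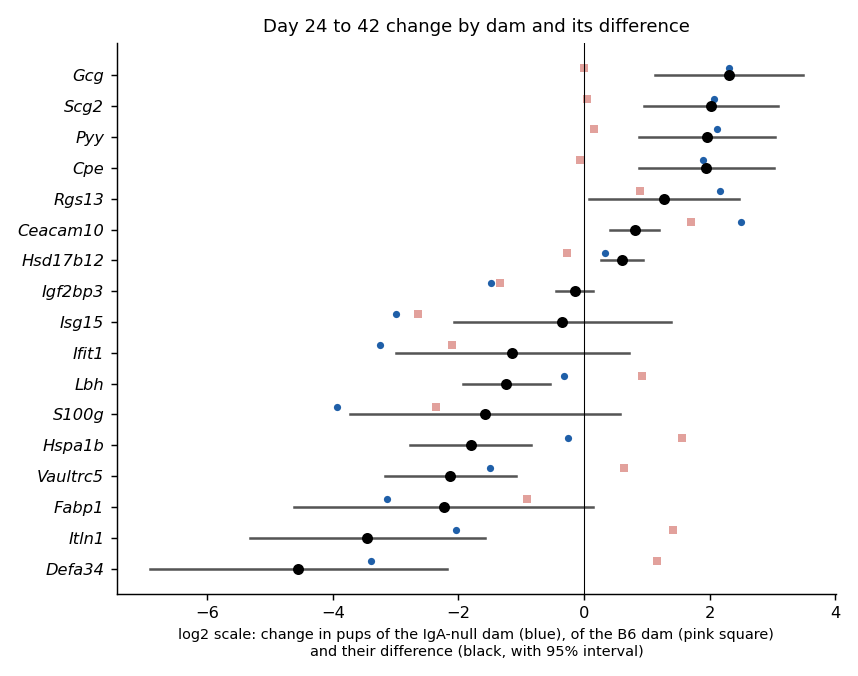
Fitted log2 change from day 24 to day 42 with the IgA -/- dam (blue circle) and the B6 dam (pink square), and their difference with its 95% interval (black), for 17 named genes. Intervals above 0 include those of Gcg, Scg2, Pyy, Cpe, Hsd17b12 and Rgs13. Intervals below 0 include those of Itln1, Defa34, Vaultrc5, Hspa1b and Lbh. None of these differences passed after adjustment over all genes. Apart from Rgs13, the genes listed here were named for the smallest p of this same difference, so that choice made their intervals exclude 0.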

How the data were processed

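RNA-seq values of 17 libraries were used as the authors deposited them, in TPM per gene symbol, 53278 symbols. Per the submitters' processing notes Bowtie2, Subread and DESeq2 were used with the mm10 build; versions and settings are not given in the sources used here. TPM were divided by median-of-ratios size factors over the 17 libraries (0.480 to 0.722 at day 24 and 0.986 to 1.10 at day 42), logged as log2(scaled TPM + 1), and fitted with limma 3.58.1 in R 4.3.3 (1 mean per dam and day, empirical Bayes with a trend, Benjamini-Hochberg over 11864 genes, two-sided). Fold changes on this scale understate those of low genes. The fit was tested on simulated data. Coordinates are from GENCODE M21 and 49618 symbols had 1 gene. No count model was used, since the values are not counts. Reads recovered from TPM (within 0.01 of a whole read) served for voom as an alternative. Other alternatives (scaling, pseudocount, filter, samples, weights, block, left-out libraries) are in the closing section.

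Named genes were the 12 largest rises and 12 largest falls among called, non-overlapping genes with a mean scaled TPM of 10 or more in the higher group, up to 4 members per list by p, the 10 smallest p of the difference between dams, and check genes. Predicted genes, clone names, pseudogenes and small non-coding RNAs were left out of the ranking by name. Ceacam10, Cd177, Igf2bp3, and other list members were named after their values were seen. The libraries and gene lists were chosen with earlier results of these data known, so no list is independent support. Some list members and ranked genes are not reported here.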

Additional observations from a re-analysis of the deposited data

How the results depend on the processing

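The 516 called genes became 7461 on TPM as deposited, 949 after quantile normalisation, 1283 on TPM recomputed without mitochondrial and the 50 highest genes, 233 with no filter on low values, 1173 in the fit of the compared groups only with their own size factors, 1184 with the 17-library size factors, 1389 with library weights and 172 with the sample number as a replicate block. Leaving out 1 library gave 45 to 1647 genes, the highest without a B6 day 24 library and the lowest without the first day 42 library, in which 43 of the 45 were among the 516. Leaving out both B6 libraries that stood apart gave 2207. Pseudocounts of 0.1 and 5 (471 and 469), a TPM of 5 in 2 libraries (363), robust moderation (477) and voom on recovered reads (351) stayed within 1.5 times. The percentage of called genes that were higher ran from 98% as deposited and 76.2% on recomputed TPM to 20.6% in the 6-library fit with 17-library size factors. The difference between dams, 0 genes, became 4 with no filter (Gm25709, Gm26157, Gm34921, Mrgprb9-ps), 12 without the 2 B6 libraries, and 0 to 2 on leaving out 1 library (Nfil3, Gm25482, Cyp4b1 or Fkbp5). The causes were not tested, beyond the fewer samples of the left-out fits.

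Of 85 named genes that passed, 17 kept direction and call in each of the 23 to 25 settings that tested them: Avil, Cd177, Ceacam10, Dclk1, Gcg, Hspa4l, Igf2bp3, mt-Co3, Muc4, Pcsk1, Pyy, Rgs13, Scg2, Scg3, Sh2d6, Sh2d7 and Trpm5. Psmb10 (0.18), Sdhb (0.22) and Fcgrt (0.16) changed sign on TPM as deposited. None of the other 99 genes recomputed did, and further genes named only with values were not recomputed. Same-numbered libraries of the 2 ages shared only a number: their deviations correlated at 0.02, 0.04 and 0.14 by the numbers in the titles, and the descriptions number the day 24 libraries differently, a pairing that was not fitted. Under the replicate block 43 of the 85 kept their call. The depth of 11683681 to 16959244 recovered reads limits the precision of genes near 1 TPM.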
